A study of Mus with 4 samples.

Results

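Circular RNAs (circRNAs) hosted by genes of intraflagellar transport and of the ciliopathies were examined in mouse ocular tissue. Such a ring arises by back-splicing, in which a donor is spliced to an acceptor that lies before it in the gene. Reads that span the back-spliced junction were counted. The members were the circRNAs whose deposited host identifier maps to 1 of 40 named genes. Of these genes, 36 hosted a circRNA in at least 1 library, and together they gave 284 of the 44073 circRNAs in the series. No circRNA was listed for Ift57, Mks1, Inpp5e and Kif7.

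The 4 libraries came from C57BL/6J mice that were wild type or had VLDLR deleted, a receptor for lipoproteins and reelin, by an allele the labels leave undescribed. All mice, the wild type included, were kept in 75% oxygen between postnatal days 7 and 12. Tissue was taken on day 12 (P12) or, after return to room air, on day 13 (P13), so that age and the return to air cannot be told apart. There was 1 library per group, and the number of animals in it is not stated in the labels. Where 4 values stand in a row, their order is wild type at P12 then P13, followed by the deletion at P12 then P13. The labels name the tissue only as ocular, and fewer cells of a type and less RNA per cell cannot be told apart in such libraries.

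The cilium is an antenna built on a basal body, and photoreceptor outer segments are modified cilia. Intraflagellar transport (IFT) carries cargo along it: IFT-B trains move outward with kinesin, and IFT-A with the dynein-2 motor returns them. The BBSome, an adaptor coat, moves membrane proteins out of the cilium, and the transition zone at its base gates entry. Mutations in these genes cause retinal degeneration in many ciliopathies, among them Bardet-Biedl, Joubert and Meckel syndromes.

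The libraries held 662811, 759063, 299723 and 341873 junction reads. Every listed circRNA had at least 2 reads, so an unlisted one may hold 1. The members took 0.394%, 0.418%, 0.407% and 0.469% of the junction reads, or 2612, 3171, 1220 and 1602 reads. Vldlr had 0 junction reads in all libraries and gave no check of the genotype labels. By a field of the read names, taken here as the sequencing run, each library came from 1 run. On the same day 0 runs were shared between the genotypes, so that genotype, run and depth cannot be told apart. Among tissue markers, 13 of 22 photoreceptor hosts were listed, with Gnat1, Nrl and Opn1mw among those at 0. Their summed reads, scaled to 1000000 effective reads, were 5354 and 6351 in the wild-type libraries against 8345 and 7992. Lens hosts (7 of 11 listed, with Cryab, Mip and Lim2 among those at 0) summed to 657 and 787 against 2526 and 1926, although of the 3 tested Bfsp1 rose and Cryga fell. Multiciliated-cell hosts (5 of 10, with Foxj1 and Dnah5 at 0) summed to 110 and 82.5 against 280 and 374. Hosts of proliferating cells (7 of 8, with Cenpe at 0) summed to 1026 and 938 against 1685 and 1675. These sums were higher in both deletion libraries, as were those of bipolar cell, pigment epithelium and striated muscle hosts. Endothelium hosts were not (78.3 and 115 against 84.8 and 94.3), nor were Mueller glia hosts (23.96 and 8.39 against 18.44 and 29.27). Of 11 tested photoreceptor hosts, 3 rose and 0 fell on the scale of these sums (7.47% and 6.47% of all hosts). With the SRPBM constant of the authors as the scale, 8 of the 11 fell and 0 rose, where 76% of all tested hosts fell. Of 3 tested multiciliated-cell hosts, 1 rose and 0 fell there. The part of these sums in the differences described next was not tested.

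Dync2h1, the heavy chain of the dynein-2 motor, gave the most member reads, with 630, 716, 234 and 304. Ttc8, a BBSome subunit, followed with 448, 656, 154 and 219 reads. Arl13b, a small GTPase of the ciliary membrane, had 277, 344, 173 and 195. These 3 hosts held 50.6% of all member reads, and the 10 circRNAs with the most reads held 43.0%. A host sum grows with the number of its back-splice junctions, so these reads rank no gene's expression. On the TMM scale, which sets the libraries to a common size (reads per 1000000 effective reads), Dync2h1 stood at 1007, 1001, 863 and 989.

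**Figure D1:**
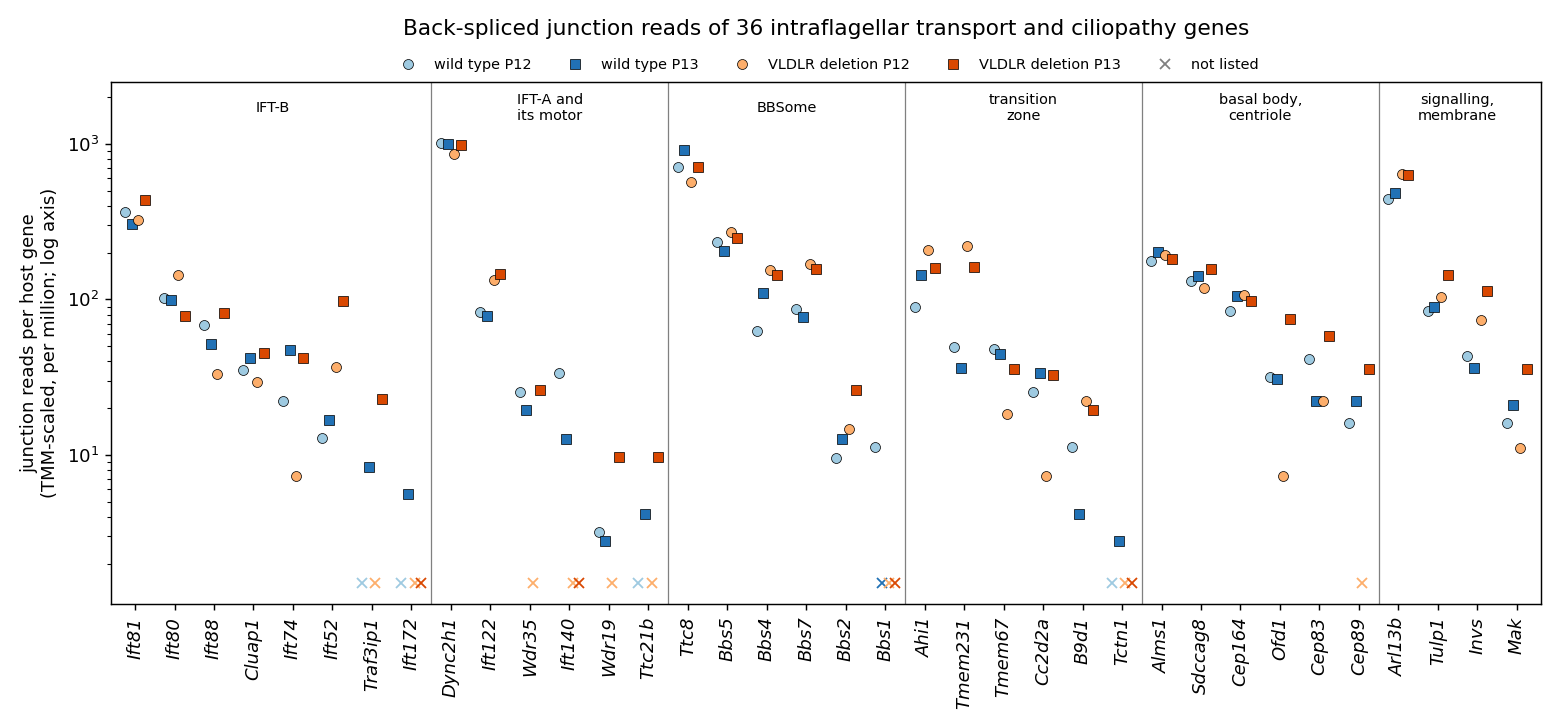
Summed junction reads per host gene (TMM-scaled, per 1000000, log axis) of the 36 genes with a circRNA, grouped by role, 1 point per library and a cross where the gene was not listed. Tmem231 and Bbs7 are higher in both deletion libraries than in both wild-type libraries, while Dync2h1 lies between 863 and 1007 in all.

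The members did not stand apart from other circRNAs in form. The exon class held 264 of the 284 (93.0%, against 91.5% of all 41644 circRNAs with a host) and the intron class the other 20. Their median genomic span was 9890 bases, from 178 to 79402, against a median of 10678.5 over all. All libraries listed 72 of them (25.4%, against 25.6% over all), and these carried 80.8% of member reads (86.9% of reads over all). A single library listed 122 (43.0%, against 41.4%). Both wild-type libraries and no deletion library listed 21 (7.39%, against 10.1% over all), and the reverse held for 6 (2.11%, against 1.05%). Most shared a splice position with another circRNA of the same host (249 of 284), so that circRNAs of a host are not independent of each other.

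The genotype was compared first, on reads summed per host with genotype and day as additive terms. In the deletion, Tmem231, Ift52, Invs, Bbs7 and Arl13b rose among 27 member hosts with enough reads to test, and 0 fell. Among all 3924 hosts tested 7.47% rose and 6.47% fell (13.9% in either direction; edgeR's quasi-likelihood test, p adjusted by Benjamini-Hochberg). At an unadjusted p under 0.05, 8 member hosts were higher and 1 lower. The share of all hosts at that threshold is not given here, so this count does not set the members apart. The median log2 fold change was 0.12 over the 27 and -0.04 over all hosts tested. With total junction reads as the scale, 3 member hosts rose and 1 fell (236 and 301 of all 3924 hosts). With at least 10 reads required in every library, 3 of 16 rose and 1 fell (274 and 239 of all 2670). The direction depended on the scale: on the SRPBM scale of the authors, where the median host was at -1.56, 16 of the 27 fell and 0 rose (76% of all hosts fell). There, Tmem231 (0.64) and Ift52 (0.56) were the 2 of the 5 still above wild type, and neither passed. DESeq2 called 1 member host (Tmem231), which was also the single call without wild type P12. Without wild type P13 the count was 2, and without deletion P12 it was 3. Without deletion P13, 3 rose and 3 fell. With 4 libraries, 1 per group, the fit has 1 residual degree of freedom. That residual is the departure from additive effects of genotype and day, which may be technical. No group has a replicate, so the p-values do not measure the spread between animals or between libraries of a group.

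**Figure D2:**
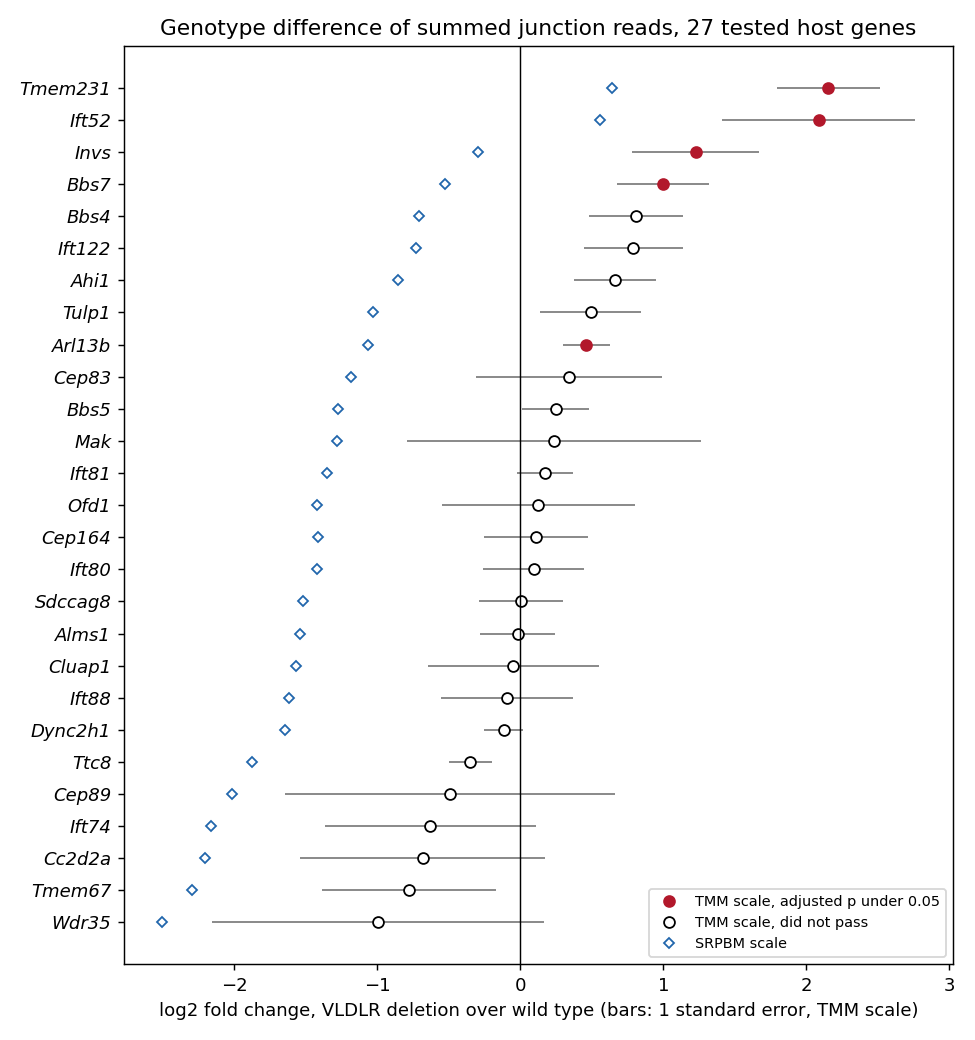
Log2 fold change of summed junction reads, deletion over wild type, for the 27 tested member hosts. Circles with bars are TMM-scale estimates ± 1 standard error (filled where adjusted p was under 0.05) and diamonds are the SRPBM-scale estimates; Tmem231 and Ift52 lie above 0 on both scales.

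Tmem231 encodes a membrane protein of the transition zone complex. It had 31, 26, 60 and 50 reads, although the deletion libraries were less deep. Both deletion values exceeded both wild-type values before any scaling. The log2 fold change was 2.15 ± 0.36 (SE; adjusted p 1.69e-07 by edgeR's quasi-likelihood test). The ratio of scaled reads was 4.47 at P12 (95% counting interval 2.85 to 7.13) and 4.47 at P13 (2.73 to 7.48). One exonic circRNA held 92.8% of these reads (chromosome 8, 111918291 to 111918956, 666 bases). It had 29, 22, 56 and 48 reads, and it rose on its own (log2 2.18 ± 0.30, adjusted p 1.62e-04 by the same test over circRNAs). Its junction ratio, the deposited fraction of reads at the splice positions that are circular, went from 0.744 and 0.786 to 0.918 and 0.850. This ratio is formed within a library and does not depend on the scaling. It counts the same junction reads by which the circRNA was called, so it is no separate support. Linear RNA was depleted before sequencing, however, and how far that moved the ratio in each library was not tested. On the SRPBM scale neither the host (adjusted p 0.112 by edgeR's quasi-likelihood test) nor this circRNA (log2 0.72) passed. The host passed under the other 12 of 13 alternatives, each left-out library included.

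Of the 9 IFT-B genes 6 were tested, and among these Ift52, which encodes a core subunit, was the one that rose. Its 8 and 12 reads in wild type became 10 and 30 in the deletion (log2 2.09 ± 0.67; adjusted p 0.0194 by edgeR's quasi-likelihood test). The scaled ratio was 5.81 at P13 (95% counting interval 2.89 to 12.5), and P13 supplied 30 of the 40 deletion reads. One circRNA (chromosome 2, 163028031 to 163033303) gave 0, 4, 6 and 23 of the reads, too few for the circRNA test. Without deletion P13 the log2 fold change was 1.32 and did not pass (adjusted p 0.118 by the same test). The call was also lost without wild type P12 (adjusted p 0.155) and without wild type P13 (adjusted p 0.0895).

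Ift81, which binds tubulin together with Ift74, had the most IFT-B reads (230 and 220 against 88 and 134). Its log2 fold change was 0.17 ± 0.19 and did not pass. Its most abundant circRNA (chromosome 5, 122551060 to 122560745) had 75 and 59 reads against 19 and 33. The other tested IFT-B hosts were Ift80, Ift88, Ift74 and Cluap1, with log2 fold changes between -0.63 and 0.09 that did not pass. Ift80 had 64 and 71 reads against 39 and 24, and Ift88 had 43 and 37 against 9 and 25. Cluap1, a peripheral subunit, had 22, 30, 8 and 14. Traf3ip1 was listed at P13 alone, with 6 reads in wild type and 7 in the deletion. Ift172 had 4 reads, all in wild type P13.

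Among the IFT-A subunits, Ift122 had 52, 56, 36 and 45 reads. Scaled, it was 1.60-fold higher in deletion P12 (95% counting interval 1.01 to 2.49) and 1.87-fold in deletion P13 (1.23 to 2.82), but the test over all libraries did not pass (log2 0.79 ± 0.35; adjusted p 0.116 by edgeR's quasi-likelihood test). Ift140 had 21 and 9 reads in wild type and was unlisted in both deletion libraries. Against a floor of 3 reads for the unlisted library, it was 3.03-fold lower at P12, a value that leaves out counting error. The 95% counting interval of the P12 ratio ran from 0 to 0.443. At equal levels 9.10 reads would have stood in deletion P12. Wdr35 had 16 and 14 reads in wild type, 0 in deletion P12 and 8 in deletion P13. Wdr19 and Ttc21b never exceeded 3 reads.

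Summed over the host, Dync2h1 had a log2 fold change of -0.12 ± 0.13 and did not pass, yet its circRNAs differed among themselves. Of its 31 circRNAs 9 were tested and 1 fell. That circRNA (chromosome 9, 6967080 to 6996939) had 75, 83, 5 and 7 reads. Its log2 fold change was -2.56 ± 0.41 (adjusted p 6.55e-04 by edgeR's quasi-likelihood test), and its share of the host's reads was 11.9% and 11.6% against 2.14% and 2.30%. It met the filter on reads through the wild-type libraries alone, so that it had to differ to be tested. With no filter its adjusted p was 1.15e-07 by the same test, but that fit used the same reads and is no separate support. In the unfiltered fit the median circRNA lay at a log2 fold change of -1.29, against -0.08 with the filter. The junction ratio of the circRNA that fell went from 0.718 and 0.731 to 0.400 and 0.286, so that circular reads were a smaller fraction of the reads at those positions. That ratio counts the same junction reads, 5 and 7 in the deletion, and is no separate support.

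The 2 most abundant Dync2h1 circRNAs lie upstream in the same gene and share a donor (chromosome 9, 7023311). The circRNA with acceptor 7050483 had 210, 192, 70 and 100 reads. The one with acceptor 7049192 had 154, 189, 99 and 105. Neither passed (log2 -0.10 ± 0.21 and 0.41 ± 0.19). All circRNAs that share the donor held 57.8% and 54.5% of the host's reads in the wild-type libraries against 72.2% and 67.4%. Those that share the acceptor of the circRNA that fell (6996939) held 25.1% and 22.2% against 8.55% and 12.2%. Their 95% exact binomial intervals were 21.7% to 28.7% and 19.2% to 25.4% in wild type and 5.30% to 12.9% and 8.72% to 16.4% in the deletion. Not every circRNA there was low: the pair of positions 6935239 and 6996939 had 25, 27, 8 and 14 reads (log2 -0.11 ± 0.49). These shared positions were singled out after their values were seen and were not tested. On the minus strand of this gene, as the files give it, the higher coordinate is the acceptor.

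Ttc8, also called BBS8, showed the same kind of split. Of its 17 circRNAs 5 were tested, and the 3 that fell all used the donor at 98964607 on chromosome 12. The circRNA from acceptor 98946569 to that donor had 93, 125, 13 and 16 reads. It fell by 1.75 on the log2 scale (SE 0.30; adjusted p 0.00113 by edgeR's quasi-likelihood test). The one from acceptor 98937120 had 61 and 90 against 10 and 14 (log2 -1.49 ± 0.36; adjusted p 0.0130 by the same test). The one from acceptor 98957281 had 51 and 100 against 12 and 18 (log2 -1.15 ± 0.35; adjusted p 0.0469). Of these 3, only the first also passed DESeq2. Without wild type P13 the second circRNA and the third did not pass (adjusted p 0.0602 and 0.400), nor did the third without deletion P12 (0.125, all by edgeR's quasi-likelihood test).

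The most abundant member circRNA of all was the short Ttc8 circle (98937120 to 98946613), which shares its acceptor with the second of those above. It had 197, 284, 95 and 138 reads, and it did not pass (log2 0.10 ± 0.18). Its share of the host's reads was 44.0%, 43.3%, 61.7% and 63.0%. The 5 circRNAs ending at donor 98964607 together held 47.1% and 50.6% against 27.3% and 26.9%. Their 95% exact binomial intervals were 42.4% to 51.8% and 46.7% to 54.5% in wild type and 20.4% to 35.0% and 21.2% to 33.3% in the deletion. The position was chosen after its values were seen, and no test was made of it. The junction ratios moved the same way: 0.401 and 0.354 against 0.160 and 0.152 for the first circRNA, 0.753 and 0.608 against 0.303 and 0.308 for the second, and 0.363 and 0.398 against 0.240 and 0.288 for the third. The short circle stood at 0.748 and 0.697 against 0.748 and 0.752. The host sum of Ttc8 had a log2 fold change of -0.35 ± 0.15 and did not pass (adjusted p 0.102 by edgeR's quasi-likelihood test).

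**Figure D3:**
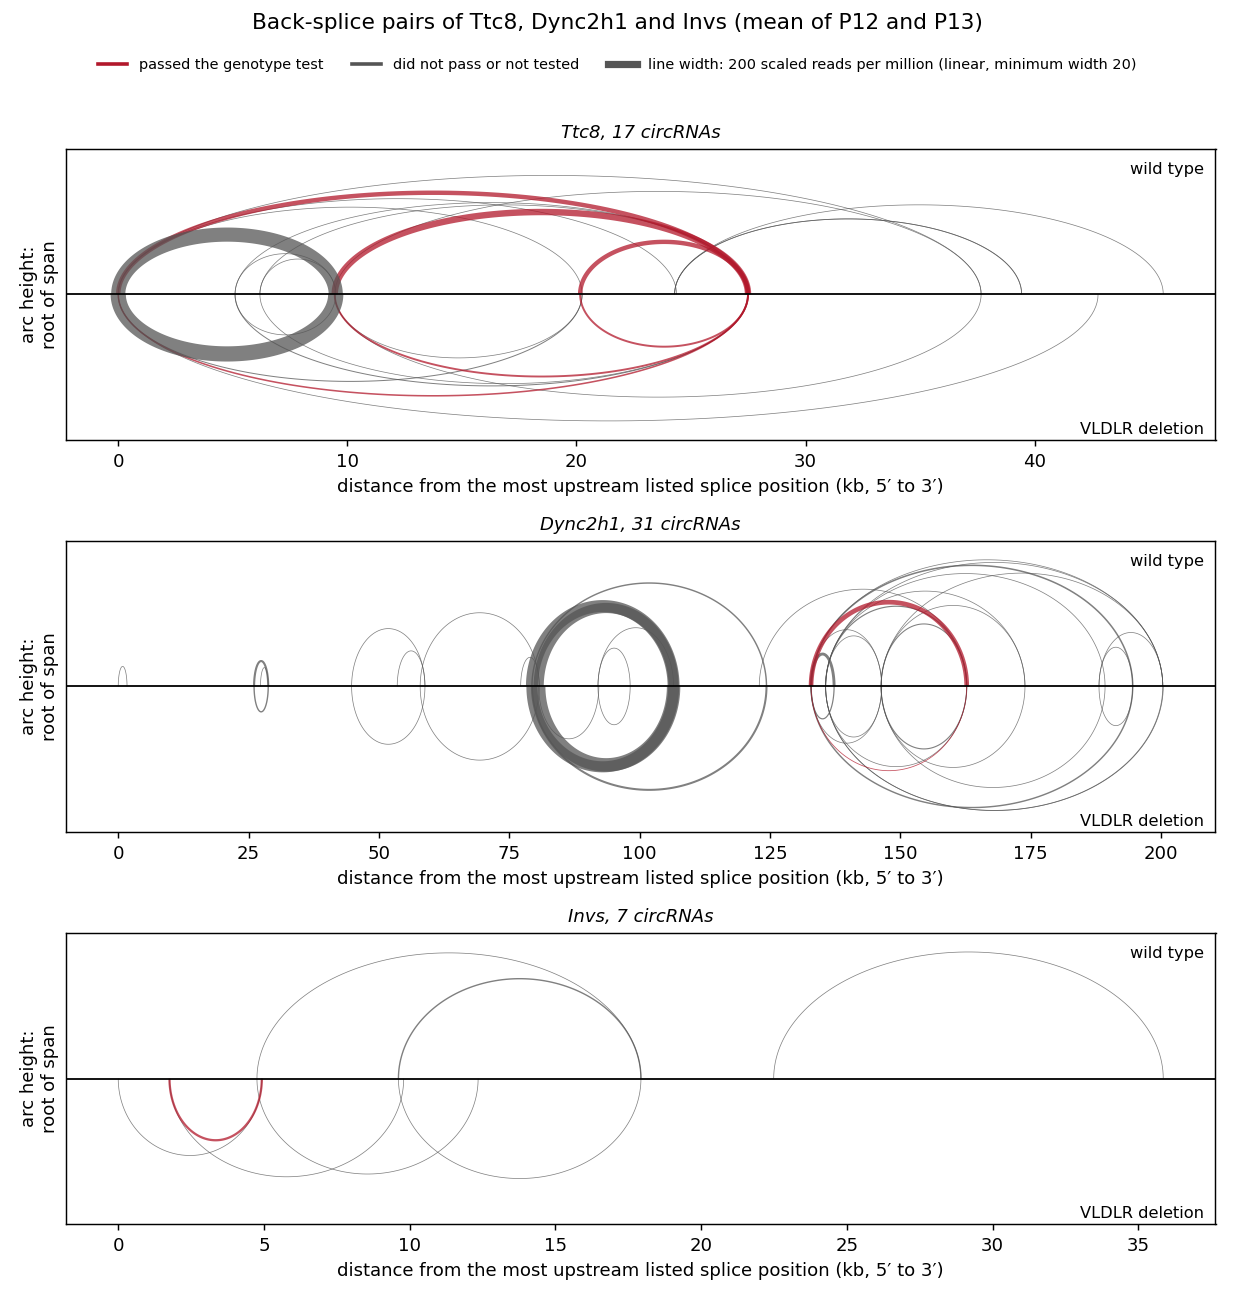
Back-splice pairs of Ttc8, Dync2h1 and Invs as arcs over distance in kb from the most upstream listed splice position, wild type above and deletion below the line, with line width proportional to scaled reads (mean of P12 and P13, never thinner than for 20) and red where the genotype test passed. The 3 red Ttc8 arcs meet at 1 donor and are thinner below the line, and the red Invs arc is drawn below it alone.

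Of the other BBSome genes, Bbs7 rose. Its 54, 55, 46 and 48 reads were similar before scaling, and after it the deletion was 1.97-fold higher at P12 (95% counting interval 1.30 to 2.97) and 2.03-fold at P13 (1.35 to 3.04). The log2 fold change was 1.00 ± 0.32 (adjusted p 0.0199 by edgeR's quasi-likelihood test). None of its 16 circRNAs passed alone. The most abundant (chromosome 3, 36590652 to 36594560) had 11, 28, 20 and 20 reads, and its junction ratio was 0.142, 0.237, 0.364 and 0.301. On the SRPBM scale Bbs7 was below wild type (-0.52). The call was lost without wild type P12, wild type P13 or deletion P12, with adjusted p of 0.0666, 0.166 and 0.0799 by the same test.

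Bbs4 had 39 and 79 reads against 42 and 44. It was 2.49-fold higher in deletion P12 (95% counting interval 1.57 to 3.95), and the overall test did not pass (log2 0.81 ± 0.33; adjusted p 0.0839 by edgeR's quasi-likelihood test). Its leading circRNA (chromosome 9, 59333480 to 59342551) had 22, 46, 20 and 23 reads. Bbs5 had 147 and 146 reads against 74 and 76 (log2 0.25 ± 0.23, not passed), and 1 circRNA held 53.3% of them (chromosome 2, 69655499 to 69665109; 82, 80, 36 and 38 reads). Bbs2 had 6, 9, 4 and 8 reads from 1 circRNA, and Bbs1 had 7 in wild type P12 alone.

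Invs encodes inversin, which marks a compartment of the proximal cilium and acts in Wnt signalling. Its sum of 27, 26, 20 and 35 reads rose after scaling (log2 1.23 ± 0.44; adjusted p 0.0434 by edgeR's quasi-likelihood test), but different circRNAs made up the sum. One (chromosome 4, 48382105 to 48385272, exon class) had 0, 0, 13 and 22 reads. Its adjusted p was 8.71e-04 by edgeR's quasi-likelihood test and 0.446 by DESeq2. It met the filter on reads through the deletion libraries alone, so that it had to differ to be tested. With no filter its adjusted p was 4.39e-07 by edgeR's quasi-likelihood test, from the same reads and thus no separate support. With a floor of 3 reads for each wild-type library, this circRNA stood 9.58-fold higher at P12 and 16.3-fold higher at P13. These folds leave out counting error. All other Invs circRNAs together stood at 43.1, 36.4, 25.8 and 42.3 scaled reads.

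A second Invs circRNA (48389959 to 48398279) had 24 and 23 reads in wild type, 0 in deletion P12 and 11 in deletion P13. It made up 88.9%, 88.5%, 0% and 31.4% of the host's reads, while the first made up 65.0% and 62.9% in the deletion. At equal levels 10.9 reads would have stood in deletion P12. Over both days the second circRNA did not pass (log2 -1.16 ± 0.87; adjusted p 0.524 by edgeR's quasi-likelihood test). Counting exon-class circRNAs alone, the sum of Invs did not pass either (adjusted p 0.118 by the same test). The sum's call was lost without wild type P12 (adjusted p 0.123), wild type P13 (0.228) or deletion P13 (0.286), and on the SRPBM scale its sign turned (-0.30).

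Arl13b rose by the smallest amount of the 5, with a log2 fold change of 0.46 ± 0.16 (adjusted p 0.0358 by edgeR's quasi-likelihood test). Its scaled reads were 443, 481, 638 and 634. The call was lost under 9 of 13 alternatives, among them the omission of any 1 library (adjusted p between 0.0551 and 0.431 by the same test), and the SRPBM scale called it lower (-1.06). Its most abundant circRNAs share an acceptor (chromosome 16, 62830813). The shorter one (from 62827164) had 145, 147, 94 and 91 reads and the longer one (from 62811849) 94, 145, 59 and 68, and neither passed (log2 0.49 ± 0.20 and 0.26 ± 0.22).

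Tulp1, a tubby-like protein of photoreceptors, had 53 and 64 reads against 28 and 44 (log2 0.49 ± 0.35, not passed). Mak, a kinase that limits cilium length in photoreceptors, had 10, 15, 3 and 11 reads (0.24 ± 1.03, not passed).

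In the transition zone list, Ahi1, which encodes the Joubert syndrome protein jouberin, had 56 and 102 reads against 56 and 49. It was 2.31-fold higher in deletion P12 (95% counting interval 1.56 to 3.40) but did not pass over all libraries (log2 0.66 ± 0.29; adjusted p 0.109 by edgeR's quasi-likelihood test). Its leading circRNA (chromosome 10, 21017913 to 21058250) had 26, 45, 15 and 21 reads. Tmem67, which encodes meckelin, had 30 and 32 reads against 5 and 11 (log2 -0.78 ± 0.61), and the scaffold gene Cc2d2a had 16 and 24 against 2 and 10 (-0.68 ± 0.86). Neither passed. B9d1 had 7, 3, 6 and 6 reads, and Tctn1 had 2 in wild type P13.

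None of the 6 basal body and centriole genes passed. Alms1, the Alström syndrome gene, had 111 and 144 reads against 52 and 56, a log2 fold change of -0.02 ± 0.26. Its leading circRNA (chromosome 6, 85641319 to 85656529) had 38, 65, 19 and 18 reads. Sdccag8 had 82, 101, 32 and 48 reads spread over 22 circRNAs (0.01 ± 0.29), and the most abundant (chromosome 1, 176831057 to 176853902) held 13.3% of them. The distal appendage genes Cep164, Cep83 and Cep89 had log2 fold changes of 0.11, 0.34 and -0.49. Cep164 had 53, 75, 29 and 30 reads, and Cep89 had 10, 16, 0 and 11. Cep83 was 2.62-fold higher in deletion P13 (95% counting interval 1.26 to 5.48), where it had 18 reads against 16. At P12 it lay the other way, with 6 reads against 26 (ratio 0.533, interval 0.179 to 1.32). Ofd1, which encodes a centriolar satellite protein, had 20 and 22 reads in wild type, 2 in deletion P12 and 23 in deletion P13. Scaled, these were 32.0 and 30.8 in wild type against 7.37 and 74.8 in the deletion. Deletion P12 was thus below both wild-type libraries and deletion P13 above both.

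Taken pair by pair, 22 member hosts had at least 20 reads over both P12 libraries. Of these, 5 were at least 1.5-fold higher in the deletion with a counting interval outside 1 and 2 were lower (13.2% and 13.9% of all hosts). The 2 lower, Ift140 and Ofd1, reached 20 reads through the wild-type library alone. With a minimum of 50 reads, 5 of 16 were higher and 0 lower (338 and 342 of all 2456 hosts). At P13, 8 of 27 were higher and 0 lower (12.1% and 13.2% of all hosts), and Ift52 reached 20 reads through the deletion library alone (30 against 12). Ift122, Bbs7 and Tmem231 were higher past the fold on both days, and Ofd1 was lower at P12 and higher at P13. The median ratio was 1.12 and 1.32 over the members and 0.979 and 0.987 over all hosts at P12 and P13. With the SRPBM constant 1 was higher and 17 lower at P12 (0.658% and 81.8% of all hosts), and 0 higher and 19 lower at P13 (0.132% and 88.2% of all hosts). Such ratios compare 2 libraries, not the conditions, have no replicate check and cover counting error only.

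The circRNA test covered 52 member circRNAs from 18 hosts. Those of Tmem231 and Invs rose and 4 fell, 3 from Ttc8 and 1 from Dync2h1 (of all 8785 circRNAs tested, 5.03% rose and 3.59% fell, 8.62% together). Of the 52, 13 reached the filter's 10 reads in wild-type libraries alone and 1 in deletion libraries alone, the called circRNAs of Dync2h1 and Invs among them, so that these counts support nothing about the members as a set. At an unadjusted p under 0.05 by edgeR, 9 were higher and 8 lower, with no share over all circRNAs given here. DESeq2 called 1 higher and 2 lower, against 187 and 102 of all 8785. With the SRPBM constant 1 rose and 28 fell (54.3% of all fell). Without wild type P13 the count was 2 and 1, and without deletion P13 it was 2 and 10. The junction ratio could be compared for 24 member circRNAs with at least 10 reads in every library. In 6 both deletion libraries were above both wild-type libraries and in 8 both were below (28.5% and 24.4% of all 4052 such circRNAs). The median difference, deletion minus wild type, was -1.88e-04 over the members and 0.00348 over all.

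**Figure D4:**
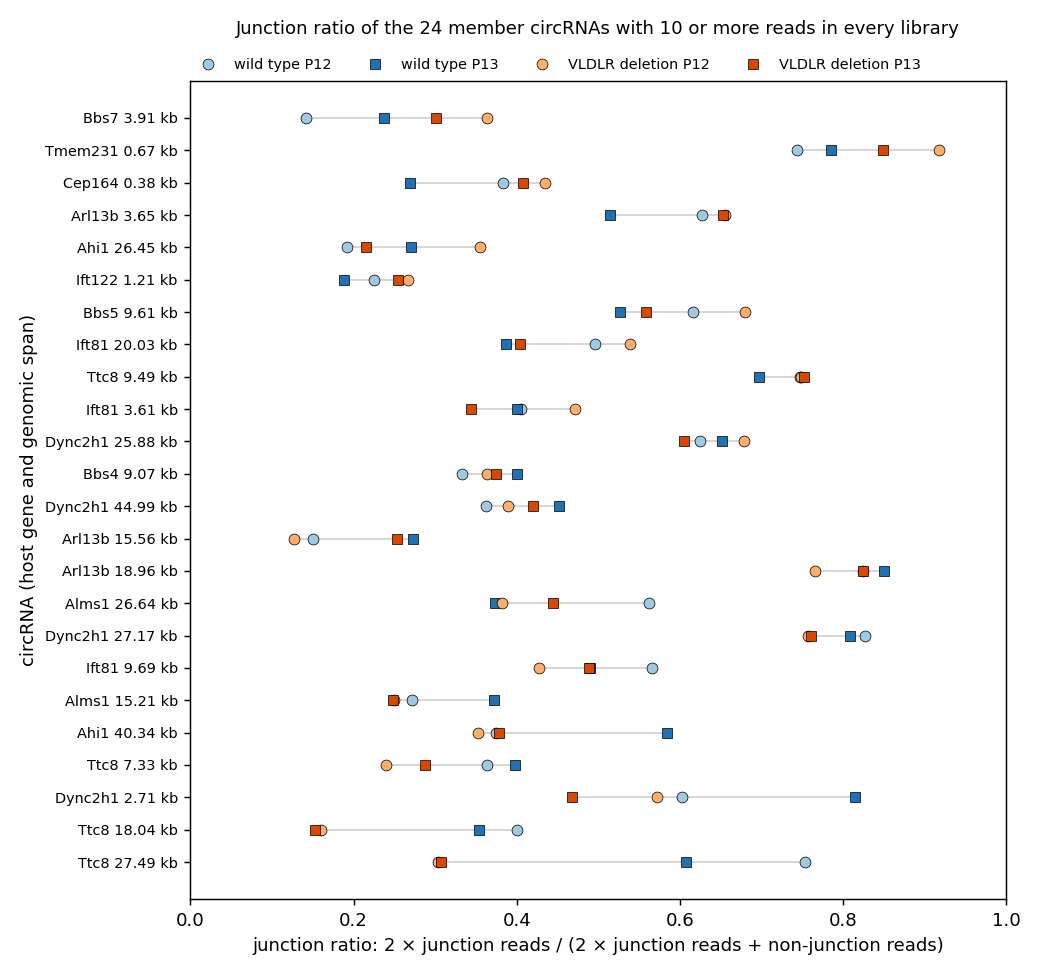
Junction ratio in each library for the 24 member circRNAs with at least 10 junction reads in every library, labelled by host and genomic span and ordered by the mean difference between genotypes. The Ttc8 circRNAs that span 27488 and 18039 bases show the lowest deletion values relative to wild type, and those of Bbs7 and Tmem231 the highest.

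The day was compared next, P13 against P12 with genotype as the other term. No member host and no member circRNA passed (by edgeR's quasi-likelihood test 0.0255% of all hosts were higher and 0.102% lower, 0.127% in all, and 0.0114% of all circRNAs were higher and 0.0114% lower, 0.0228% in all). At an unadjusted p under 0.05, 2 member hosts were higher at P13 and 0 lower, and 1 circRNA was higher and 0 lower, while DESeq2 called 0 hosts and 0 circRNAs at either threshold. The hosts were Ift74, with 14, 34, 2 and 13 reads (log2 1.53 ± 0.73), and Ttc8, with 448, 656, 154 and 219 (0.34 ± 0.15). Their adjusted p was 0.998 by the same test. How many of all hosts and circRNAs lay under the unadjusted threshold is not given here. The median log2 fold change of the day was 0.23 over the 27 member hosts and 0.01 over all.

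In single pairs of libraries, Ift74, Bbs4 and Ahi1 were higher and Ift140 lower at P13 in wild type, among 28 hosts with enough reads (6.44% and 6.9% of all hosts). The ratios were 2.13, 1.77, 1.59 and 0.375. In the deletion Ift52, Ift88, Ofd1 and Cep83 were higher and Ift80 lower, among 21 hosts (5.87% and 6.37% of all). Their ratios were 2.65, 2.45, 10.1, 2.65 and 0.543. No host was past the fold in both genotypes, and whether the change with day differs between genotypes was not tested.

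Other cilium genes gave a comparison list of 68, of which 43 hosted circRNAs and 26 were tested. For the genotype 3 rose and 2 fell (7.47% and 6.47% of all hosts), and for the day 0 passed. On the SRPBM scale 21 of the 26 fell and 0 rose (76% of all hosts fell), and all 5 named next were among those that fell. Kif3b, a motor subunit of the kinesin that drives IFT-B, rose (125, 121, 101 and 109 reads; log2 0.98 ± 0.22). Wdpcp, a planar polarity effector of ciliogenesis, rose as well (450, 543, 286 and 380 reads; 0.63 ± 0.13), as did Cspp1 (83, 85, 60 and 67; 0.81 ± 0.27). Nphp4, a transition zone gene, fell (210, 261, 38 and 30 reads; log2 -1.57 ± 0.25), as did Cplane1 (41, 25, 2 and 3; -2.44 ± 0.79), which met the filter on reads through the wild-type libraries alone. The adjusted p of these 5 lay between 2.92e-08 and 0.0246 by edgeR's quasi-likelihood test. Bbs9, a further BBSome subunit and by far the most abundant host of this list, had 9686, 12449, 5062 and 5204 reads and did not pass (0.11 ± 0.09). The median log2 fold change of this list for the genotype was -0.22, against 0.12 over the tested members.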

How the data were processed

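Total RNA of 4 libraries was depleted of ribosomal and linear RNA, fragmented and sequenced in pairs, per the labels' protocols. The deposited tables follow the layout of CIRI per the file headers. They give, as counts made by the authors, the junction and non-junction reads of each circRNA, and a junction ratio, a deposited fraction that was recomputed with each junction read counted 2 times, over those plus the non-junction reads. SRPBM, also deposited, is a signal in which the authors divided junction reads by 1 constant per library (9.14, 9.10, 10.6 and 12.1 reads per SRPBM, wild type first, P12 before P13). The submitters' processing notes name BWA and DESeq2. For the genome build and annotation, nothing is given in the sources used here. Coordinates are those of the files.

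Host identifiers were matched to RefSeq symbols (GRCm38.p6, names only), between 99.83% and 99.90% per library. Reads were summed per host over all classes. All member circRNAs had 1 host. Hosts and circRNAs that reached 10 reads in 2 or more libraries were fitted with edgeR 4.0.16 (R 4.3.3), with TMM scaling, robust quasi-likelihood test, genotype and day as additive terms, Benjamini-Hochberg adjustment at 0.05 over the whole table. The fit was checked on simulated data. Standard errors are the absolute log2 fold change over the square root of the test's F statistic, so they are not independent of the test. Scaled reads are per 1000000 effective reads. Pairs of libraries were compared by the ratio of scaled reads with an exact conditional 95% interval, for hosts with at least 20 reads over the pair and a fold of 1.5. Intervals of the junction ratio and of shares are exact binomial. Reads carry no molecular identifiers, so that intervals and floors cover counting error only. Alternatives were DESeq2 1.42.0, other scalings, other filters, 1 term and leaving out each library.

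Every member is accounted for. CircRNAs given in full are those that passed a test, the 10 with the most reads and the leading circRNA of each of the 10 hosts with the most reads. Other circRNAs were named after their values were seen. The members and lists were chosen with earlier results of these data known.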

Additional observations from a re-analysis of the deposited data

Results flagged for a closer look

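Ofd1 was past 1.5-fold in opposite directions on the 2 days: its scaled reads in the deletion relative to wild type were 0.231 at P12 (95% counting interval 0.0262 to 0.950) and 2.43 at P13 (1.30 to 4.57). The difference between the days was not tested. The P12 value rests on 2 reads, all from 1 of the host's 9 circRNAs, against 20 in wild type P12, and 7 circRNAs of the host were listed in deletion P13.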

How the results depend on the processing

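Of 27 member hosts tested, 5 were called for the genotype, all higher, against 16 with the SRPBM constant (all lower), 1 by DESeq2, 2 with no filter on low counts and 3 with genotype as the sole term. Total junction reads as the scale gave 3 higher and 1 lower, as did requiring 10 reads in every library. Leaving out 1 library in turn gave between 1 and 6. With the SRPBM constant the log2 fold change was -1.06 for Arl13b, -0.52 for Bbs7 and -0.30 for Invs, so that these 3 turned direction, as that constant moves the median host to -1.56. Of 52 member circRNAs, 6 were called, against 29 with the SRPBM constant and 3 by DESeq2, and between 3 and 12 with 1 library left out. The Ttc8 circRNA from acceptor 98946569 passed under each of 11 alternatives. Those of Dync2h1 and Invs were in 8 each. With 10 reads required in every library they were not tested, nor was Dync2h1 without either wild-type library or Invs without either deletion library. For the day the count was 0 under every alternative. Of hosts past the fold (7 at P12, 8 at P13, 4 for the day in wild type, 5 in the deletion), the SRPBM constant gave 18 at P12 and 19 at P13. A fold of 2 gave 2 for the day in wild type. A minimum of 50 reads gave 5 at P13, 2 for the day in wild type, and 1 for the day in the deletion. The cause was not tested. No paired analysis was possible because each group has 1 library and the labels number no replicates. With 3 libraries a fit holds 1 term. Depth limits all libraries, where the median over listed circRNAs was 6 reads in each wild-type and 5 in each deletion library.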
